A study of Rattus norvegicus with 6 samples.

Results

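The genes described here encode heterotrimeric G proteins and the proteins that act directly before and after them: G alpha, beta and gamma subunits, RGS proteins, adenylyl cyclases, phospholipases C, G protein-coupled receptor kinases (GRKs) and arrestins. They were chosen by name. Every probe set with a single platform symbol of these families was taken, with Gnal, Rgs9 and Adcy5, which are strong in striatum, left out. This gave 48 genes, read by 70 probe sets, of the 4736 genes with a value. For each gene the brightest of its probe sets over the 6 arrays stood for it. Of the 48, 17 had several probe sets and 31 had 1.

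An activated receptor makes a G alpha subunit exchange GDP for GTP, which frees it from the beta-gamma pair. Both parts then act on effectors. Gs stimulates and Gi inhibits adenylyl cyclases, which make cAMP, whereas Gq activates phospholipase C beta, which makes inositol trisphosphate and diacylglycerol. RGS proteins speed up GTP hydrolysis and so shorten the signal, and GRKs with arrestins uncouple the receptor. The serotonin 2A receptor, through which LSD acts on pyramidal neurons of prefrontal cortex, couples mainly to Gq.

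RNA came from the medial prefrontal cortex of rats, male Sprague-Dawley animals of 250 to 275 g. Ages were not given. One group received lysergic acid diethylamide (LSD) at 1.0 mg/kg intraperitoneally and the other saline, and tissue was taken 90 min later. Each group has 3 Affymetrix rat arrays, on which sets of short probes read each transcript, with log2 RMA values. Per the labels the tissue of the 4 rats of a group was pooled before RNA extraction, while the study describes independent replicates of paired rats, which 4 rats could not supply for 3 arrays. All errors and p-values therefore describe variation among arrays, and that variation may be technical. The second line of each sample description names the opposite treatment. Groups here follow the titles and treatment fields. Under the opposite reading all signs below would turn.

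The arrays correlated with each other at 0.985 to 0.995 over the 4736 genes, each read by its brightest probe set, and 0 pairs held identical values. Saline 1 deviated most. On it 78 probe sets differed from the average of the remaining 5 arrays by over 1 on the log2 scale, against 2 to 21 on each of those. Of the 48 genes, 8 deviated on Saline 1 by more than 0.3 (16.7%, against 13.9% of all genes), and 0 to 4 did so on the other arrays. Markers of the tissue were checked from fixed lists. Of the 3 measured general neuronal markers, Snap25 and Nefl were bright, at the 99.2nd and 95.1st percentile of gene brightness, and Syt1 was at the 54.6th. The excitatory marker Nrgn lay at the 99.6th percentile, Camk2a at the 46.1st and Slc17a7 at the 29.8th. Striatal markers had a median percentile of 62.7, with Pdyn highest at the 95.8th. Choroid plexus and meningeal markers had a median of 61.9, with Ttr highest at the 98.5th. The tissue, labelled medial prefrontal cortex, is bulk, so fewer cells of a type and less RNA per cell cannot be told apart.

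Promoter sequence was the feature of these genes that their choice by name had not used. The 4 windows shown belong to bright G protein subunits described below. Each spans 250 bases before to 50 after a RefSeq start in the GRCr8 assembly, written 5′ to 3′ on the gene's strand. Capitals mark TGACG or its reverse complement CGTCA, the core of the cAMP response element. Of the 3 listed Gnas windows, the one with this core is shown. The Gnao1 window is chr19:11198388-11198687 (minus strand), that of Gnas is chr3:183489398-183489697 (plus strand, 1 of its 3 listed windows), that of Gnb2 is chr12:24795529-24795828 (plus strand) and that of Gnb1 is chr5:171378113-171378412 (plus strand).
Gnao1: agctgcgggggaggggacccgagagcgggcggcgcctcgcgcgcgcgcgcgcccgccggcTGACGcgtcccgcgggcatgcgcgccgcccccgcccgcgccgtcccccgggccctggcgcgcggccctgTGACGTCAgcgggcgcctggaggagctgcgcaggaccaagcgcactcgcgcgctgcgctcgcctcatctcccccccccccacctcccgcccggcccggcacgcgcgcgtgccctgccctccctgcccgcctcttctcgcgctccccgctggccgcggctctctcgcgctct
Gnas: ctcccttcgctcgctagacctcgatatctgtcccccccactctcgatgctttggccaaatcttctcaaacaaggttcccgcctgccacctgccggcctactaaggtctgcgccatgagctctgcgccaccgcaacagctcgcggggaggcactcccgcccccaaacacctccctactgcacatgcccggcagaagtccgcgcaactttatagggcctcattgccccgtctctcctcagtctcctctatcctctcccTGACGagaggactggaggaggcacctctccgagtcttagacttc
Gnb2: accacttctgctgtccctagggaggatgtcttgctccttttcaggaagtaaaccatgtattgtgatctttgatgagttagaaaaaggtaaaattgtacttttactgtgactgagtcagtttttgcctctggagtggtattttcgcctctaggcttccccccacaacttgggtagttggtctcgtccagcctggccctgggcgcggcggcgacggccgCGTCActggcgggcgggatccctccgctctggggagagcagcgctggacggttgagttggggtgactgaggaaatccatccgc
Gnb1: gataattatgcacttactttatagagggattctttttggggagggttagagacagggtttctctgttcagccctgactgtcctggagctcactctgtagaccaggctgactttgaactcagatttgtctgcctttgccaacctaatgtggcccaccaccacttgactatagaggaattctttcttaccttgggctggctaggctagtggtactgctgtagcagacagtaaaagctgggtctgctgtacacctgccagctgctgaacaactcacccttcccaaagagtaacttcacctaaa

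The Gnao1 window holds the full element TGACGTCA, the Gnas and Gnb2 windows hold the core once each, and the Gnb1 window holds neither. The other 2 Gnas windows hold no core, so the Gnas window shown is the only one of its 3 with a match. Its core lies after the start. The window shown is the most upstream of the 3. Which of the 3 starts gives the measured Gnas transcript was not tested, so it need not be the promoter of Gs. For 36 of the 48 genes the RefSeq table had a window, 38 windows in all, with none listed for Gnai2. The full element, searched on both strands, was in 1 of the 38 (2.63%), against 1.83% of all 33469 windows. The core, which the full element contains, was in 10 of the 38 (26.3%), against 21.2% of all windows. Besides those shown, the core was found for Gnb5, Gng5, Grk3, Plcb3, Plcg1, Rgs1 and Rgs4. Median GC content was 63.8% in the windows of these genes and 51.7% in all windows. A match is a run of letters and not a measured binding site.

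After LSD none of the 48 genes passed the test. The limma fit over all 4736 genes gave adjusted p-values of 0.971 to 0.999 among them, and 0.0211% of all genes (1 gene) passed. At an unadjusted p under 0.05 there was 1, Gnai1, where 3.63% of all genes lay. The methods' rank sum test also called 0, and cannot call any with 3 arrays against 3, since its smallest p is 0.1. All differences were small. They ran from −0.24 log2 (Adcy10, which turned to 0.12 without the array Saline 1) to 0.35 log2 (Rgs1), with a median size of 0.094 against 0.077 over all genes.

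Within the variation among these arrays, the fit limits how large an unseen change could be. The 95% intervals of the fit exclude a 1.5-fold increase for 45 of the 48 genes and a 1.5-fold decrease for 47. The upper limit passed that size for Rgs1 (1.71-fold), Arrb1 (1.62-fold) and Adcy4 (1.54-fold), and the lower limit did so for Adcy10 (0.559 of the saline level). RMA compresses the differences of dim probe sets, so these limits hold on the RMA scale. If the arrays of a group repeat a single pool, the intervals hold no variation between rats. They then do not limit a change across animals.

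The signs leaned downward. Values were higher after LSD for 17 genes (35.4%) and lower for 31, whereas 51.7% of all genes were higher. The median difference was −0.05 log2 against 0.01 log2 over all genes. In 7 genes (14.6%) all 3 LSD arrays lay below all 3 saline arrays, and in 0 did they lie above. Over all genes 3.34% were separated with LSD lower, 6.97% with LSD higher and 10.3% either way. After a second quantile normalization 9 genes were separated, 7 of them lower, where 10.1% of all genes were separated either way. With array medians subtracted the count was also 9, 7 of them lower, where 10.5% of all genes were separated. It was 5 with averaged probe sets (10.1% of all genes) and 6 with the most variable one (9.97% of all genes). The 7 separated on the deposited values were Gnai2, Gnas, Gnb1, Gnb2, Gnb3, Arrb2 and Plcb2, and each is described below. The gap between the nearest arrays of the groups was over 0.05 log2 in only 1 of them, Gnas.

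**Figure D1:**
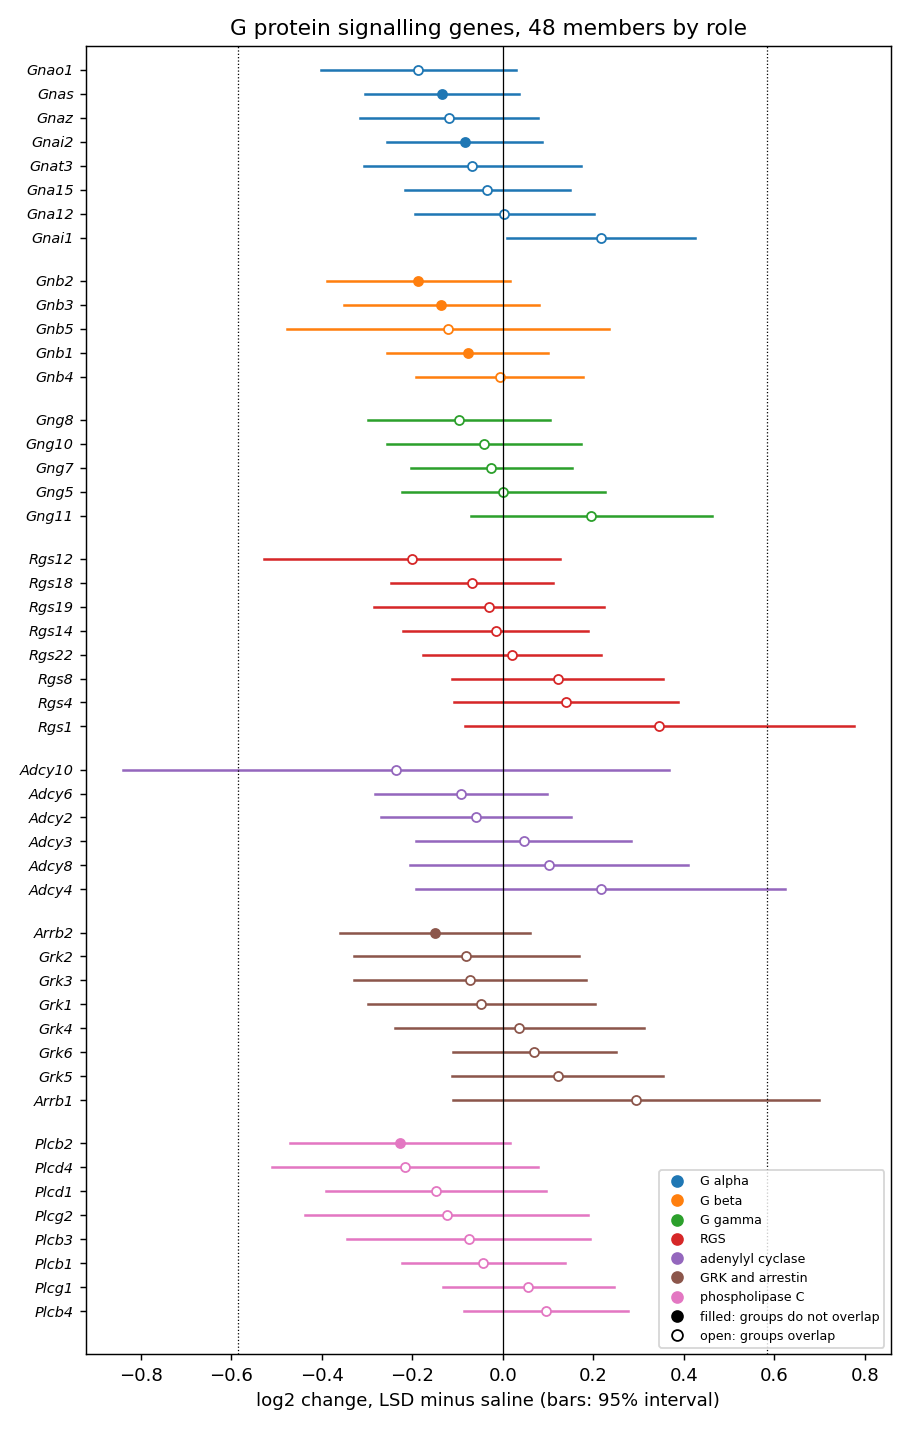
LSD minus saline difference (log2) with its 95% interval from the limma fit for each of the 48 genes, ordered by role, with filled points where the groups do not overlap, open points where they do, and dotted lines at a 1.5-fold change in either direction. The 7 filled points (14.6% of the 48 genes) are all below 0, 3 of them G beta subunits, where 3.34% of all genes were separated with LSD lower. None of the 48 passed the adjusted test.

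Of the 8 G alpha genes, 2 had higher and 6 lower values, with a median of −0.08 log2 and 2 separated. Counts of separated genes in this and the following roles stand beside 3.34% of all genes with LSD lower and 10.3% either way. Gnas encodes the stimulatory subunit Gs. Its values were 11.72, 11.73 and 11.77 on the saline arrays and 11.58, 11.61 and 11.62 on the LSD arrays. Every LSD array was below every saline array, by 0.0996 log2 or more. The group means were 11.74 ± 0.0285 and 11.60 ± 0.0181 (SD, n = 3 each), a difference of −0.14 ± 0.074 (SE), or 1.10-fold lower. This sign turned under another scaling. After a second quantile normalization the same probe set differed by 0.10, while the other 3 Gnas probe sets stayed lower there, by −0.10, −0.15 and −0.20.

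Gnai2, an inhibitory subunit, read 9.14, 9.18 and 9.19 after saline and 9.07, 9.08 and 9.12 after LSD. The groups did not overlap, but the gap was only 0.0184, and the difference was −0.08 ± 0.075. Gnao1 encodes Go, the most abundant G alpha subunit of brain. It read 8.88, 9.03 and 9.11 after saline and 8.92, 8.80 and 8.74 after LSD. LSD 1 lay above Saline 1, so the groups overlapped, with a difference of −0.19 ± 0.094.

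Gnai1, the sister inhibitory subunit, went the other way. Its values were 5.89, 5.75 and 5.76 after saline and 5.89, 6.06 and 6.09 after LSD, so that Saline 1 and LSD 1 coincided and LSD 2 and LSD 3 stood above. The difference was 0.22 ± 0.091, with a 95% interval of 0.01 to 0.42 (1.16-fold, limma adjusted p = 0.971). With array weights in the limma fit its adjusted p was 0.184. Gnaz, a pertussis toxin-insensitive member of the inhibitory class, differed by −0.12 ± 0.085. The remaining subunits differed little, with Gna12 at 0.00, Gna15, a blood cell member of the Gq class, at −0.03, and Gnat3, the taste subunit gustducin, at −0.07. Gnaq and Gna11, the usual partners of the serotonin 2A receptor, were not analysed here, since no probe set carried either symbol alone.

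All 5 G beta genes had lower values after LSD, with a median of −0.12 log2, though the sign of Gnb5 rested on Saline 1 and Gnb4 was near 0. In 3 of the 5 the groups were separated, with a gap under 0.05 log2 in each. Over all genes 3.34% were separated with LSD lower. Gnb2 read 8.44, 8.64 and 8.68 after saline and 8.41, 8.38 and 8.40 after LSD. The LSD arrays lay within a narrow band under the lowest saline array, with means of 8.40 ± 0.0149 against 8.59 ± 0.124 and a difference of −0.19 ± 0.088. Gnb1, a major beta subunit of brain, read 10.74, 10.76 and 10.84 after saline and 10.74, 10.72 and 10.65 after LSD. Saline 1 and LSD 1 were only 0.00585 apart, and the difference was −0.08 ± 0.078. After the second quantile normalization it was −0.02. Gnb3, the beta subunit of cone photoreceptors, was dim here, at 4.76, 4.49 and 4.52 against 4.46, 4.45 and 4.45. Saline 1 was its highest array, and the difference of −0.14 ± 0.094 came to −0.05 without it. Gnb5, which pairs with a subgroup of RGS proteins, differed by −0.12 ± 0.16, with Saline 1 at 7.59 as its highest value. Without Saline 1 it differed by 0.06, and its second probe set differed by 0.05. Gnb4 differed by −0.01.

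**Figure D2:**
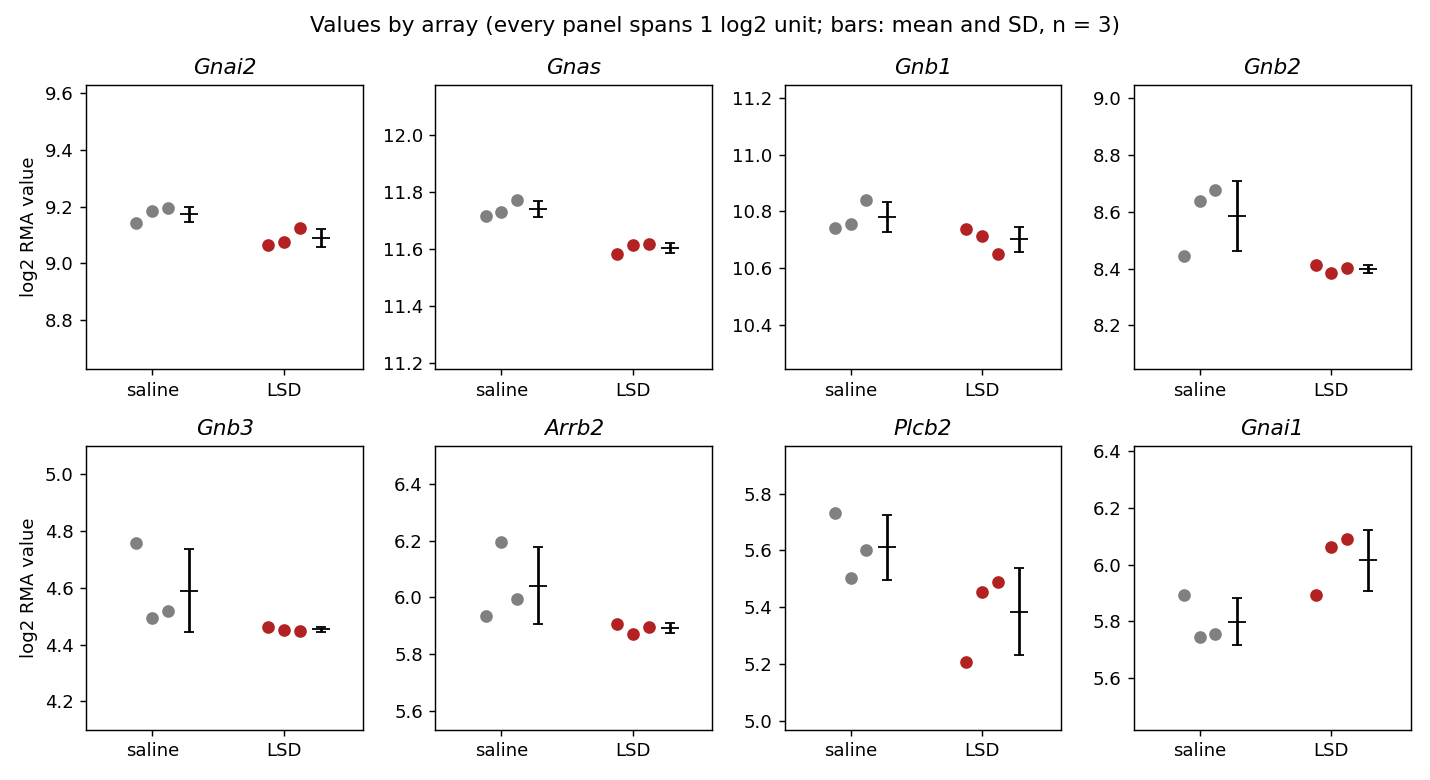
Log2 RMA value on each array, with the mean and SD of each group (n = 3) beside the points, for the 7 genes whose groups do not overlap and for Gnai1, each panel spanning 1 log2 unit. The LSD points of Gnas and Gnb2 lie under every saline point, whereas in Gnai1 LSD 1 lies level with Saline 1 and the other LSD points lie above.

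The G gamma subunits, which anchor the beta-gamma pair in the membrane, had 2 higher and 3 lower values, with a median of −0.03 log2 and 0 separated. Gng11 read 3.95, 4.18 and 4.34 after saline and 4.27, 4.47 and 4.32 after LSD, a difference of 0.20 ± 0.12 (0.09 without Saline 1). Gng8 read 6.64, 6.72 and 6.70 against 6.46, 6.63 and 6.68, a difference of −0.10 ± 0.088. In both the groups overlapped. Gng5, Gng7, a partner of the olfactory and striatal G alpha, and Gng10 differed by 0.00, −0.03 and −0.04.

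The 8 RGS genes were evenly divided, 4 higher and 4 lower, with a median of 0.00 log2 and 0 separated. Rgs4, a cortical RGS gene that acts on Gi and Gq, read 7.03, 7.35 and 7.38 after saline and 7.41, 7.42 and 7.35 after LSD. Only Saline 1 was low. The difference was 0.14 ± 0.11 and came to 0.03 without Saline 1. Rgs1, best known from lymphocytes, had the largest positive difference of the 48 genes, 0.35 ± 0.19. It read 3.11, 3.10 and 3.30 after saline and 3.34, 3.22 and 3.99 after LSD, so that LSD 3 alone stood well above. Without LSD 3 the difference was 0.11. Rgs12, a large RGS protein with further domains, read 7.01, 6.76 and 6.48 against 6.55, 6.70 and 6.40, a difference of −0.20 ± 0.14 that came to −0.07 without Saline 1 and −0.34 without Saline 3. Rgs8, Rgs14, Rgs18, Rgs19 and Rgs22 differed by −0.07 (Rgs18) to 0.12 (Rgs8). A second Rgs8 probe set differed by −0.08. Rgs2 was not analysed here, since no probe set carried its symbol alone.

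The 6 adenylyl cyclase genes were 3 higher and 3 lower, with a median of −0.01 log2 and 0 separated. Adcy6, a cyclase inhibited by calcium, read 6.08, 6.23 and 6.24 after saline and 6.08, 6.05 and 6.14 after LSD, a difference of −0.09 ± 0.083. Adcy4, which the beta-gamma pair can stimulate, read 4.73, 3.96 and 4.15 against 4.45, 4.51 and 4.53. Saline 1 was the highest and the other saline arrays were below every LSD array. The difference of 0.22 ± 0.18 became 0.44 without Saline 1 (limma adjusted p = 0.469) and 0.06 without Saline 2. Adcy10, the soluble cyclase, is regulated by bicarbonate and not by G proteins, and is counted here by its symbol. It read 5.75 on Saline 1 and 4.60 to 4.88 on all other arrays, with a difference of −0.24 ± 0.26 that turned to 0.12 without Saline 1. Adcy2, Adcy3 and the calmodulin-stimulated Adcy8 differed by −0.06, 0.05 and 0.10.

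The 8 phospholipase C genes were 2 higher and 6 lower, with a median of −0.10 log2 and 1 separated. Plcb1, the main Gq effector of cortex, read 7.34, 7.36 and 7.43 after saline and 7.40, 7.29 and 7.31 after LSD. The groups overlapped, with a difference of −0.04 ± 0.079. Plcb2, a beta isoform of blood cells, read 5.73, 5.50 and 5.60 against 5.21, 5.46 and 5.49. All LSD arrays were lower, LSD 1 most, with means of 5.38 ± 0.154 and 5.61 ± 0.114 and a difference of −0.23 ± 0.11. Plcd4, of the calcium-driven delta class, read 5.12, 5.30 and 5.28 against 4.74, 5.18 and 5.14. LSD 1 was low there too, and the difference of −0.22 ± 0.13 came to −0.08 without it. Plcb3 and Plcb4 differed by −0.08 and 0.10, while their second probe sets differed by 0.11 and −0.06. Plcd1 differed by −0.15, and Plcg1 and Plcg2, which tyrosine kinases activate, by 0.06 and −0.12.

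The 8 GRK and arrestin genes were 4 higher and 4 lower, with a median of −0.01 log2 and 1 separated. Arrb2, a beta-arrestin gene whose protein binds phosphorylated receptors, read 5.93, 6.20 and 5.995 after saline and 5.91, 5.87 and 5.90 after LSD. The LSD arrays were all lower, by 0.0274 or more, with a difference of −0.15 ± 0.092. Arrb1, the other beta-arrestin gene, read 4.03, 4.45 and 4.13 against 4.88, 4.28 and 4.32. LSD 1 alone was high, and the difference of 0.29 ± 0.18 was 0.10 without it. The receptor kinases ranged from −0.08 for Grk2, which beta-gamma subunits recruit, to 0.12 for Grk5. Grk6 differed by 0.07, while its second probe set differed by −0.19. Grk1, a kinase of retina, differed by −0.05.

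A second look at the same transcripts came from 22 further probe sets. Of these, 12 had the sign of the probe set that stood for the gene, 15 were lower after LSD, and 4 were separated, all lower. Over all 70 probe sets, 46 were lower and 11 were separated, again all lower, where 3.79% of all 8740 probe sets were separated with LSD lower and 10.4% either way. The fit over probe sets called 0 of the 70, where 0.0686% of all probe sets were called, and 4 had an unadjusted p under 0.05, where 3.92% of all did. Probe sets of a gene can share a source sequence, so they are not independent readings.

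The 7 separated genes had 8 further probe sets beside those by which they were found separated. Of the 8, 7 were lower and 4 separated. They read the same RNA on the arrays by which the 7 genes were picked, so they are no separate test. A separated further set of Gnai2, of Gnas and of Gnb1 bears the same source sequence name as the set that stood for the gene. For Gnas the further probe sets differed by −0.09, −0.19 and −0.23, the last with an SE of 0.091. A second Gnai2 probe set differed by −0.22 ± 0.086, but another differed by 0.18 ± 0.096, and was the single one of the 8 with a higher value. Further Gnb1 probe sets differed by −0.19 ± 0.079 and −0.06, and that of Arrb2 by −0.13. For Gnao1 the second probe set differed by 0.00, for Gng8 by 0.01, and for Plcb1 by 0.01 and −0.07.

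**Figure D3:**
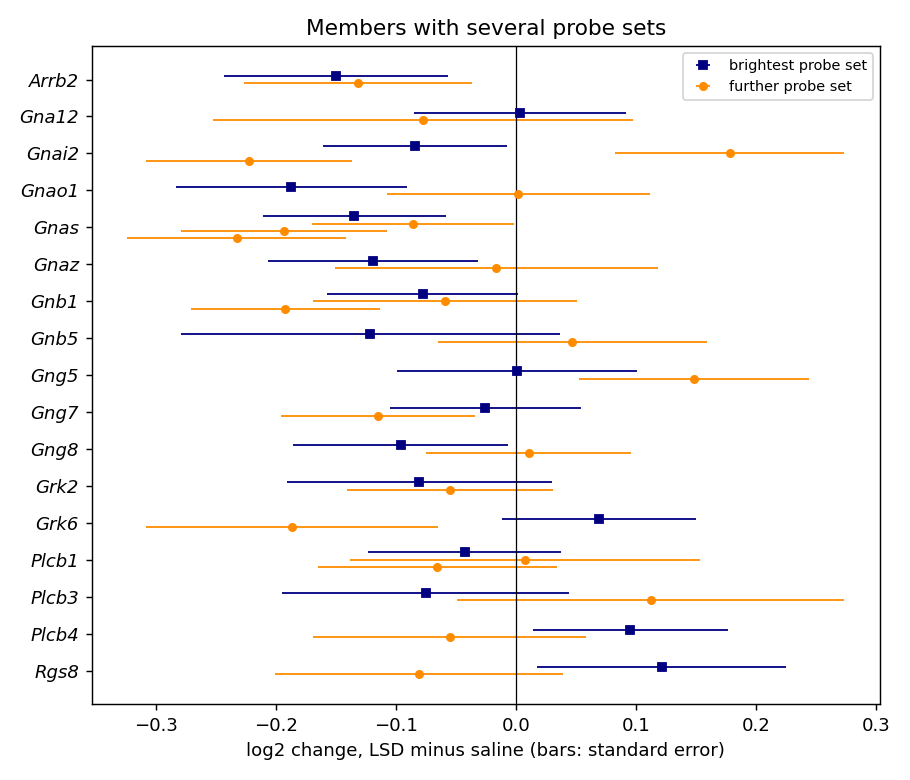
LSD minus saline difference (log2) with its SE for every probe set of the 17 genes that have several, squares for the brightest probe set of a gene and circles for its further ones. The Gnas and Gnb1 probe sets are all below 0, and the Gnai2 probe sets lie on both sides of 0.

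The share of lower values differed between levels of brightness. Of the 31 lower genes, 25 were outside the brightest 10%, where 42 of the 48 genes lay. Of the 48 genes, 6 were in the brightest 10% of all genes (Adcy2, Gnai2, Gnao1, Gnas, Gnb1 and Gnb2), and 0 of the 6 were higher after LSD, where 47.7% of all genes in that class were. In that class 4 of the 6 were separated with LSD lower, where 10.5% of all bright genes were. Among the remaining 42 genes 3 were so separated, where 2.53% of all dimmer genes were, and 17 (40.5%) were higher, where 52.1% were. In the dimmest 25%, 7 of 12 were higher (58.3%, against 52.5% of all genes there). At the top of the range a second quantile normalization turned the sign of the brightest Gnas probe set, as given above. The part of brightness in these signs was not tested.

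**Figure D4:**
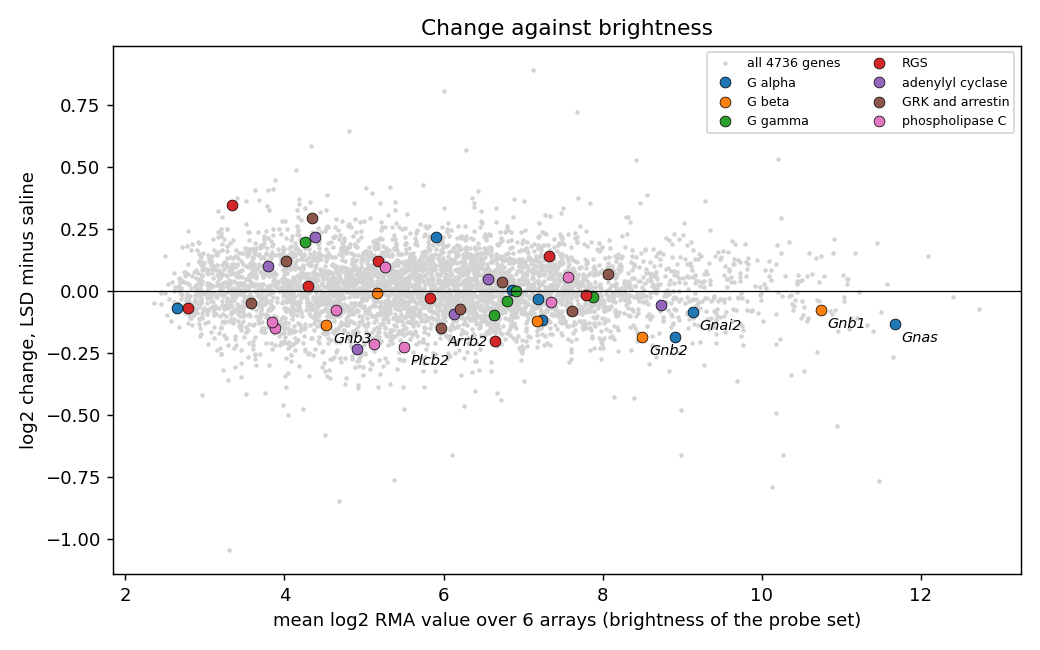
LSD minus saline difference (log2) against the mean log2 value over the 6 arrays, with all 4736 genes in grey and the 48 genes coloured by role and the 7 whose groups do not overlap named. The 6 genes in the brightest 10% all lie below 0, and the dim genes lie on both sides.

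Single arrays weighed on the counts. Without Saline 1 the number of separated genes was 21, 17 of them lower, where 28.8% of all genes were then separated and 14.1% were lower. Without Saline 3 it was 11 (17% of all genes), without LSD 1 also 11 (22.3% of all genes), and without LSD 3 it was 13 (19.3% of all genes). The sign turned for 20 of the 48 genes when some single array was left out, 6 of them without Saline 1. None of the 19 genes named with values on each array turned, but 14 of them moved by over 1.5 times. For the separated genes among them the sign could not turn when an array was left out. Most of the others were named for a low p, which favours a stable sign. The number with an unadjusted limma p under 0.05 without Saline 1 was 6 (Adcy4, Gnai1, Gnao1, Gnb2, Plcb3 and Plcd1), where 9.31% of all genes were, and 0 passed the adjusted test.

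Genes next in the same pathways also gave no call. Of the cAMP effectors, the kinases, anchors and factors that read cAMP, 17 were measured, 4 higher and 13 lower, with a median of −0.05 log2. Among them Rapgef3, an exchange factor that cAMP activates, read 5.94, 6.005 and 6.13 after saline and 5.72, 5.79 and 5.80 after LSD. All LSD arrays were lower, with a difference of −0.25 ± 0.085 (limma adjusted p = 0.971). Prkacb, a catalytic subunit of the cAMP-dependent kinase, differed by 0.15 ± 0.097. Of the phosphodiesterases, which degrade cyclic nucleotides, 11 were measured, 5 higher and 6 lower, with Pde2a at −0.19 ± 0.089 and Pde1c at 0.22 ± 0.13.

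Of the inositol phosphate and diacylglycerol genes downstream of phospholipase C, 26 were measured, 13 higher and 13 lower, with a median of 0.00 log2. Pitpna, which transfers phosphatidylinositol between membranes, read 8.31, 8.07 and 8.21 after saline and 8.44, 8.42 and 8.42 after LSD. All LSD arrays were higher, by 0.23 ± 0.087 (limma adjusted p = 0.971). Pi4ka, which makes phosphatidylinositol phosphate, differed by −0.24 ± 0.13. Of 6 other G protein modulators, 3 were higher and 3 lower, with Nucb1 at 0.11 ± 0.079 and Pdcl at −0.10 ± 0.15. The striatal genes left out by the rule differed by −0.18 ± 0.087 (Rgs9, separated with LSD lower), −0.08 (Adcy5) and −0.18 ± 0.21 (Gnal).

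Some other measures moved with the groups. The summed linear level of the 3 measured of 5 neuronal markers was 2088 to 2126 after saline and 2330 to 2395 after LSD. It was led by the bright Snap25 (0.13), with Nefl at 0.22 and Syt1 at 0.33. The sums for neuron classes overlapped. For 3 of 6 cortical excitatory markers they were 2088 to 2132 against 2102 to 2284, with 1 gene higher and 2 lower. For the 6 inhibitory markers they were 1410 to 1450 against 1348 to 1457, with 1 higher and 5 lower. The sum of the 5 measured of 6 choroid plexus and meningeal markers was 1732 to 1912 against 1356 to 1425. Most of it is Ttr, which differed by −0.49, with Igf2 at −0.24, Kl at −0.08, Dcn at 0.00 and Col1a1 at 0.13. For 6 of 7 astrocyte markers the sums were 2366 to 2653 against 2081 to 2345, led by the bright S100b (−0.24) and Slc1a3 (−0.25). Their mean log2 level overlapped, at 6.75 to 6.95 against 6.83 to 6.85, and Aqp4 (0.41, separated) and Slc1a2 (0.15) were higher. For 11 of 14 striatal markers the sums overlapped, at 1342 to 1405 against 1245 to 1364, but their mean log2 level did not, at 6.28 to 6.37 against 6.12 to 6.24. Of the 11, 9 were lower and 5 were separated, all lower, where 3.34% of all genes were separated with LSD lower. Among the 5 were Penk (−0.46), Arpp21 (−0.36) and Tac1 (−0.32), while the bright Pdyn differed by 0.07. The 11 include Rgs9, Adcy5 and Gnal, whose differences are given above. For beta-actin the 3′ minus 5′ difference, a sign of RNA quality, was 0.787 ± 0.0439 log2 after saline and 0.687 ± 0.0412 after LSD (SD, n = 3 each, two-sided exact permutation p = 0.1, the smallest the design allows). That of Gapdh was 0.523 ± 0.0433 and 0.492 ± 0.0906 (two-sided exact permutation p = 0.7). Their part in the lower values of the G protein genes was not tested.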

How the data were processed

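The deposited log2 values were made by the authors with the rma function of affy (background correction, quantile normalization, probe summary; its version is not given in the sources used here). Quantile normalization hides a change shared by most transcripts. Of 8799 probe sets, 59 controls were left out of the 8740 tested, of which 7006 had 1 symbol in the platform annotation, 308 several and 1426 none. One probe set that names Gnai1 together with Gnai3 was therefore not used. The 70 probe sets all matched RefSeq genes of GRCr8 by gene ID, with 0 symbols changed. Promoter windows came from that assembly, since the array files name no build. Of the 48 genes, 6 stand on probe sets with the suffix s, which may match several transcripts (Gna15, Gnaz, Gng5, Plcd1, Rgs12 and Rgs18). Gnao1, Gnas, Gnb1 and Gnb5 stand on probe sets with the suffix g, which this count leaves out.

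Groups (3 saline and 3 LSD arrays) were compared in R 4.3.3 by the lmFit and eBayes functions of limma 3.58.1, two-sided and without covariates. P-values were adjusted by the Benjamini-Hochberg method over all genes or all probe sets, with a threshold of 0.05. The code was tested on simulated data. Arrays have no read depth, and their number limits the precision. The genes and lists were chosen with earlier results of these data known. Genes named with values on each array were those whose groups did not overlap, the 2 of lowest p in each role, Plcb1, Arrb2 and Rgs4. For each neighbouring list the gene of lowest p in each direction was named. Alternatives were other scalings, a level filter, array weights, an intensity trend and robust prior, a replicate block, other choices of probe set, the rank sum test and leaving out each array. A comparison of protein sequences was not made.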

Additional observations from a re-analysis of the deposited data

How the results depend on the processing

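The count of G protein, RGS, cyclase, GRK, arrestin and phospholipase genes past the adjusted threshold was 0 under every alternative run. The count over all 4736 genes was 1 in the limma fit. Among genes above the median level, fitted and adjusted by themselves, 4 passed. The count over all genes was 4 with the probe sets of a gene averaged and 6 with an intensity trend and robust prior. It was 5 with array weights and 5 with the brightest probe set without a suffix. It was 0 after a second quantile normalization, with cyclic loess and with the rank sum test, and 0 without each array in turn. With the replicate number as a block it was also 0, and the lowest adjusted p among the 48 genes was 0.997. Deviations of same-numbered arrays correlated at −0.02, −0.23 and 0.15, so the numbers were not taken to pair the arrays.

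Among genes above the median level, 28 of the 48 remained and 8 were higher after LSD. Leaving out each array gave 17 to 21 higher genes, a median of −0.06 to −0.03 log2 and 10 to 21 genes with groups that do not overlap, where 16.7% to 28.8% of all genes did not overlap. Of 316 values of the 19 named genes under alternatives, 314 kept their sign, which naming by separated groups or low p favours. The exceptions were Gnas at 0.10 after a second quantile normalization and Plcb1 at 0.0073 with the most variable probe set, and the cause was not tested. The beta-actin difference without each array was −0.118 to −0.0755 and that of Gapdh −0.0761 to 0.0144.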
